A study of Arabidopsis thaliana with 12 samples.

Results

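Transcripts of 3 plastid phosphate translocators were followed in Arabidopsis thaliana leaves: TPT, the triose phosphate/phosphate translocator (locus AT5G46110), GPT2, a glucose 6-phosphate/phosphate translocator (AT1G61800), and XPT, the xylulose 5-phosphate/phosphate translocator (AT5G17630). They are 3 of 22746 probe sets on the array once controls are left out, and all 3 passed a filter on dim signals, a signal of 20 on 3 arrays, that kept 16076. XPT was found through the platform annotation, which gives AT5G17630 as the only gene of probe set 246445_at. That annotation names no gene for 248886_at, taken as TPT, and 264400_at, taken as GPT2, so their assignment rests on how the members were defined. All 3 were chosen with results of these data known. TPT, the gene mutated in ape2, and GPT2 are treated as chosen by their measured signal differences, TPT by that between genotypes. The genotype differences of TPT and all differences of GPT2 are therefore given as a description without a test.

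The series concerns a TPT mutant and holds 12 single-colour arrays of total RNA from mature rosette leaves that were not shaded, at developmental stage 3.7, with 3 arrays in each of 4 groups. The groups are the T-DNA insertion line ape2, in the Ws-2 background, in condition H and in condition L, and the accession Ws-2, which serves as the wild type, in conditions H and L. The sample titles do not say what H and L stand for, and neither do they give the age or growth conditions of the plants. A single insertion line was used, and the position of its insertion relative to the array probes is not stated. Nothing states that the replicates came from separate plants, so a p-value here reflects the spread among these samples alone, which may be technical.

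Carbon fixed in the chloroplast by day leaves it mainly as triose phosphate, which TPT carries across the inner envelope in exchange for inorganic phosphate, and this export feeds sucrose synthesis in the cytosol. Carbon that is not exported is stored in the chloroplast as starch. GPT2 moves glucose 6-phosphate into plastids, a route best known from non-green tissues, and its transcript is known in leaves as one that responds to sugars and to a change in light. XPT exchanges xylulose 5-phosphate and joins the pentose phosphate pathways of plastid and cytosol. All 3 proteins belong to the plastid phosphate translocator family, whose other members in this species, GPT1, PPT1 and PPT2, have no probe set named in the annotation used here.

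Values are MAS5 signals on a linear scale, and the deposited arrays all have the same trimmed mean. Median signals per array were 36.2 to 40.1, and 63.7% to 67.7% of the probe sets were at 20 or above. Correlations of log2 signals ran from 0.979 to 0.986 within groups and from 0.968 to 0.984 between groups. The 3' to 5' signal ratio of GAPDH, a sign of RNA integrity, averaged 1.77 ± 0.05 in ape2 H, 1.87 ± 0.20 in ape2 L, 1.86 ± 0.26 in Ws-2 H and 2.05 ± 0.22 in Ws-2 L (SD, n = 3). Its range in ape2 H, from 1.73 to 1.83, lay below that in Ws-2 L, from 1.87 to 2.29, and the same held for the ratio of actin. The actin ratio averaged 3.70 ± 0.45 in ape2 H (3.2 to 4.06), 4.03 ± 0.43 in ape2 L, 4.14 ± 0.73 in Ws-2 H and 4.26 ± 0.14 in Ws-2 L (4.1 to 4.34). The part of these ratios in the results below was not tested. Of the leaf mesophyll markers, RCA and PRK are measured here and their lowest signals on any array were 3617 and 3430. The root markers EXPA7 and EXPA18 stayed at or below 26.8 and 45.5, the guard cell marker FMA lay between 38.9 and 68.4, the dividing cell marker AUR1 between 46.1 and 59.2, and the pollen marker AT5G07430 at or below 4.5. None of these markers that were tested passed in any contrast.

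TPT was the transcript that separated the genotypes most widely. Its probe set gave signals of 178.8, 170.4 and 171.9 in ape2 L, against 3698, 3917 and 4522 in Ws-2 L. In condition H the signals were 181.4, 167.6 and 167.9 in ape2, against 4466, 3740 and 3689 in Ws-2. Every ape2 array lay far below every Ws-2 array, and the 6 ape2 values fell within a narrow band from 167.6 to 181.4, all above the filter level of 20.

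The ape2 mean was 4.29% of the Ws-2 mean in condition L and 4.35% in condition H. On the log2(signal + 10) scale, on which all differences are given here with their SE, the difference of ape2 from Ws-2 was -4.46 ± 0.09 in L (SE, with a 95% interval from -4.64 to -4.28) and -4.44 ± 0.09 in H (-4.63 to -4.26). It was the largest difference of either sign among the 16076 probe sets in each condition, and it is treated as the value by which the gene was chosen. At a limma adjusted p under 0.05, 9.8% of all probe sets were called between the genotypes in L and 10.5% in H. Arrays that did not overlap, with ape2 lower, were seen for 12.9% of them in L and 15.7% in H. The source of the signal that remained in ape2 was not tested. In leaf tissue, fewer cells of a type and less RNA per cell cannot be told apart.

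Between conditions no difference in TPT was detected in either genotype. The means were 172.3 ± 7.88 in ape2 H and 173.7 ± 4.48 in ape2 L (SD, n = 3 each), with overlapping ranges. In Ws-2 they were 3965 ± 435 in H and 4046 ± 427 in L, again with overlapping ranges. The difference of H from L was -0.01 ± 0.09 in ape2 (95% interval from -0.19 to 0.17, limma adjusted p = 0.968) and -0.03 ± 0.09 in Ws-2 (-0.21 to 0.15, adjusted p = 0.936). The intervals include changes of either sign, and the sign of both estimates turned under quantile normalization, at 0.002 and 0.04. Of all probe sets, 4.03% were called between H and L in ape2 and 2.95% in Ws-2. On the linear scale the coefficient of variation was 4.57% in ape2 H and 2.58% in ape2 L, against 10.98% in Ws-2 H and 10.55% in Ws-2 L. The conditions are compared on the same arrays that enter the genotype comparisons.

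**Figure D1:**
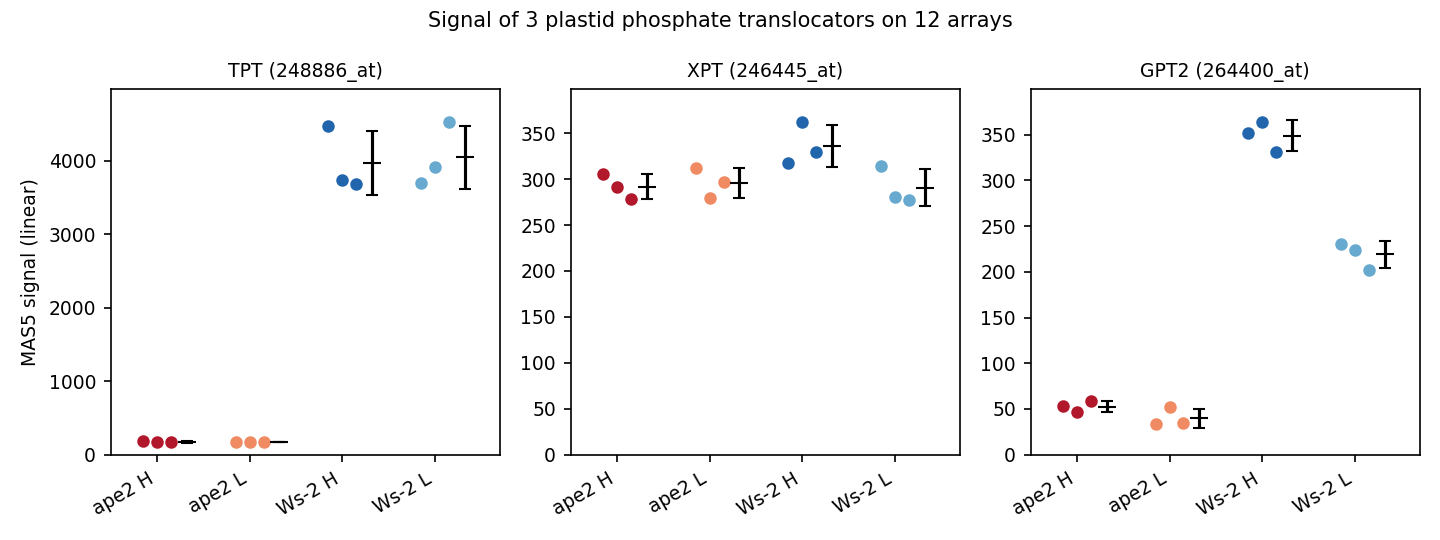
Signals of TPT, XPT and GPT2 on each array (points) by group, on a linear axis from 0, with the mean and SD of the 3 arrays beside them. TPT lies between 167.6 and 181.4 in ape2 and between 3689 and 4522 in Ws-2, GPT2 is low in ape2 and highest in Ws-2 H, and XPT lies between 277.7 and 361.9 in all 4 groups.

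GPT2 was also lower in ape2 than in Ws-2, and within Ws-2 it was higher in condition H. In condition L its signals were 33.3, 52.0 and 34.4 in ape2, against 230.9, 224.3 and 202.5 in Ws-2. In condition H they were 53.2, 46.3 and 58.5 in ape2, against 352.3, 363.6 and 330.6 in Ws-2. The genotypes did not overlap in either condition, with ape2 lower, as was seen for 12.9% of all probe sets in L and 15.7% in H. The highest ape2 array of all, in H, had a signal of 58.5 where the lowest Ws-2 array, in L, had 202.5.

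The ape2 mean was 18.2% of the Ws-2 mean in condition L and 15.1% in condition H. Over the 9 pairings of an ape2 with a Ws-2 array, the Ws-2 signal was 3.89 to 6.93 times the ape2 signal in L and 5.65 to 7.85 times in H. The difference of ape2 from Ws-2 was -2.22 ± 0.12 in L (95% interval from -2.48 to -1.95) and -2.52 ± 0.12 in H (-2.79 to -2.26), the 3rd and the 2nd most negative of the 16076 probe sets. Because the ape2 signals are low, the size depends on the offset added before the logarithm. It was -2.46 in L and -2.71 in H with an offset of 1, and -1.81 and -2.17 with an offset of 32.

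Between conditions, the GPT2 mean was 348.8 ± 16.8 in Ws-2 H and 219.2 ± 14.9 in Ws-2 L (SD, n = 3 each), a ratio of 1.59 and a log2 difference of 0.65 ± 0.12 (95% interval from 0.38 to 0.91). All 3 arrays in H lay above all 3 in L, a separation that 9.64% of all probe sets showed in this direction. In ape2 the mean was 52.7 ± 6.12 in H and 39.9 ± 10.5 in L, a ratio of 1.32 and a log2 difference of 0.34 ± 0.12 (0.08 to 0.61). Here the groups overlapped, because the second ape2 L array, at 52.0, lay within the range of ape2 H, from 46.3 to 58.5. Without that array the difference was 0.51 ± 0.10, and without the first ape2 L array it was 0.25 ± 0.13 (SE). With only the ape2 groups in the fit it was 0.34 ± 0.16. The interval rests on a spread shared by the 4 groups and is a description, not a test.

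In signal units, H exceeded L by 12.8 in ape2 and by 129.6 in Ws-2. On the log2 scale the response in ape2 differed from that in Ws-2 by -0.30 ± 0.18 (95% interval from -0.68 to 0.07). Its size varied with the processing, at -0.36 ± 0.14 with an offset of 32, -0.40 ± 0.18 without the first ape2 L array and -0.14 ± 0.14 without the second (SE). The order of the group means was therefore Ws-2 H, Ws-2 L, ape2 H and ape2 L, and the last pair are neighbours whose values overlap.

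XPT passed the test in none of the 5 contrasts. Its signals were 311.6, 279.4 and 297.3 in ape2 L, against 314.3, 280.5 and 277.7 in Ws-2 L. In condition H they were 305.3, 291.4 and 278.8 in ape2, against 317.5, 361.9 and 329.9 in Ws-2. In L the genotypes overlapped throughout, whereas in H every ape2 array lay below every Ws-2 array.

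In condition L the difference of ape2 from Ws-2 was 0.03 ± 0.08 (95% interval from -0.14 to 0.19, limma adjusted p = 0.889). In condition H it was -0.20 ± 0.08 (-0.36 to -0.03), with an unadjusted p of 0.0229 and a limma adjusted p of 0.134, so it did not pass over all genes. Groups that do not overlap and are lower in ape2 were seen for 15.7% of all probe sets in H. The ape2 mean in H was 86.7% of the Ws-2 mean.

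The means of XPT were 336.4 ± 22.9 in Ws-2 H and 290.8 ± 20.4 in Ws-2 L (SD, n = 3 each). The 3 arrays in H lay above those in L, as they did for GPT2 and for 9.64% of all probe sets. The difference of 0.20 ± 0.08 (0.04 to 0.37, unadjusted p = 0.0196) had a limma adjusted p of 0.233. In ape2 the means were 291.8 ± 13.3 in H and 296.1 ± 16.1 in L, a difference of -0.02 ± 0.08 (-0.19 to 0.15, adjusted p = 0.935). The difference between these responses was -0.22 ± 0.11 (-0.46 to 0.01, adjusted p = 0.673), and limma called 3 of the 16076 probe sets, or 0.0187%, in that contrast. Ws-2 H had the highest mean, and the other groups, at 296.1 in ape2 L, 291.8 in ape2 H and 290.8 in Ws-2 L, overlapped with each other.

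**Figure D2:**
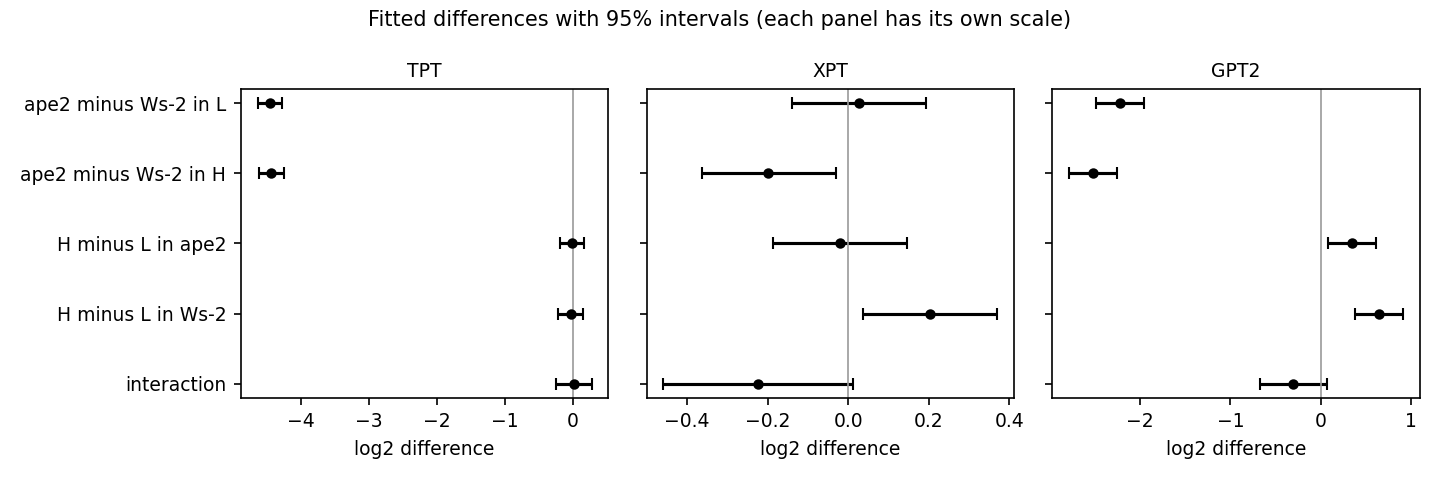
Fitted log2 differences (points) with 95% intervals (bars) for TPT, XPT and GPT2 in the 5 contrasts, where interaction is the H minus L difference in ape2 less that in Ws-2. Each panel has its own horizontal scale, so that the XPT differences, from -0.22 to 0.20, can be seen beside those of TPT near -4.4 and of GPT2 at -2.22 and -2.52.

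The 3 members thus had different orders of levels over the same arrays. For TPT the arrays separated by genotype and overlapped between conditions. For GPT2 they separated by genotype and, in Ws-2, by condition. For XPT the Ws-2 H arrays stood above all others, a difference that did not pass the test. Levels of one probe set are not set against those of another, because each has its own response to its target.

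Genes of the pathways that the translocators connect were taken from lists drawn up for this purpose, with 100 genes beside the members. Only 18 of the 100 have a probe set with a single gene named here, and all 18 passed the filter. In condition L, limma called 0 of them higher and 3 lower in ape2. The median difference was -0.17 over the 18, where the median over all probe sets was 0.01. Of these 3, APL4 passed the filter only through the Ws-2 arrays, where it was higher, so its call is not taken as support. In condition H limma called 1 higher and 4 lower, with a median of -0.12 against -0.01 over all. As shares of all probe sets, 5.04% were called higher and 4.76% lower in L, and 4.98% higher and 5.54% lower in H. Between H and L, 1 was called higher and 1 lower in ape2, and 1 higher and 0 lower in Ws-2. Over all probe sets the shares were 1.79% higher and 2.25% lower in ape2, and 1.03% higher and 1.92% lower in Ws-2.

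Of the 16 genes on the starch synthesis list only 3 were measured. Between the genotypes, limma called 2 of these 3 lower in ape2 in L and 1 in H, and 0 higher. The 2 in L include APL4, which passed the filter only through the Ws-2 arrays, where it was higher. Its call is therefore not taken as support for lower levels in ape2. Over all probe sets, 4.76% were called lower in L and 5.54% in H. So few genes do not describe the pathway. APL3 is a large subunit of the pyrophosphorylase that makes ADP-glucose, the glucosyl donor for starch. It had signals of 50.5, 45.9 and 45.6 in ape2 L, against 102.8, 79.7 and 88.0 in Ws-2 L. It fell by 0.80 ± 0.11 on the log2 scale (limma adjusted p = 1.72e-04). In H its signals were 74.2, 81.6 and 73.0 in ape2, against 129.2, 106.9 and 110.8 in Ws-2, and it fell by 0.54 ± 0.11 (adjusted p = 0.0032). Its arrays did not overlap between the genotypes in either condition, as was the case for GPT2. Such a separation, with ape2 lower, was seen for 12.9% of all probe sets in L and 15.7% in H.

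APL3 also rose in H over L in ape2, by 0.59 ± 0.11 (limma adjusted p = 0.00525), while the difference in Ws-2 was 0.33 (adjusted p = 0.135) and the difference between these responses did not pass (0.26, adjusted p = 0.731). APL4, another large subunit, had signals of 22.9, 12.5 and 16.3 in ape2 L (mean 17.2 ± 5.26) and 26.9, 28.8 and 38.6 in Ws-2 L (31.4 ± 6.28). In ape2 H it lay between 16.0 and 17.8, so without the Ws-2 arrays it would not have passed the filter at 20. In L it was lower in ape2 than in Ws-2 by 0.61 ± 0.18 (limma adjusted p = 0.0438), a difference measured near that filter level. That call was lost under 14 of 20 alternatives, 10 of them fits without a single array (up to 0.183), and it held without ape2 L 1 or Ws-2 H 3. SBE2.2, a starch branching enzyme, was at -0.22 in L and -0.23 in H (adjusted p = 0.0963 and 0.0698).

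On the sucrose synthesis list, AT2G35840 had mean signals of 376.0 ± 15.1 in ape2 L and 474.4 ± 35.1 in Ws-2 L, and fell by 0.33 ± 0.07 (limma adjusted p = 0.00878). In H it fell by 0.30 ± 0.07 (0.0143), with means of 409.4 ± 16.1 in ape2 and 505.4 ± 24.3 in Ws-2. The call in L was lost without Ws-2 L 3 (0.0509), and that in H without Ws-2 H 1, Ws-2 H 2 or ape2 H 2 (up to 0.0571). F2KP makes and degrades the regulatory metabolite fructose 2,6-bisphosphate. Within H it was lower in ape2 than in Ws-2 by 0.29 ± 0.07 (0.0104), a call lost without Ws-2 H 2 (0.0563). ATSPS4F, a sucrose phosphate synthase, was higher in ape2 than in Ws-2 within H, by 0.32 ± 0.08 (0.0227). This call ended without ape2 H 1, ape2 H 3 or Ws-2 H 3, with a constant prior and with only the compared groups in the fit (up to 0.114).

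For the oxidative pentose phosphate pathway, which XPT touches, limma called 1 of 4 measured genes. It was lower in ape2 than in Ws-2 in H, and lower in H than in L within ape2. Over all probe sets, 5.54% and 2.25% were called lower in these contrasts. So few genes do not describe the pathway. AT1G64190 had signals of 309.1, 308.4 and 289.0 in ape2 H, against 381.2, 415.3 and 388.3 in Ws-2 H, and fell by 0.38 ± 0.07 (limma adjusted p = 0.00245). It was also lower in H than in L within ape2, by -0.28 ± 0.07 (0.0372), a call lost under 11 of 21 alternatives, among them the fits without ape2 L 1, ape2 L 3, each of the ape2 H arrays, Ws-2 L 2, Ws-2 L 3 or Ws-2 H 3 (up to 0.156).

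Of the 4 measured Calvin-Benson cycle genes (RCA, SBPASE, PRK and AT1G56190) and the 2 other envelope carriers on the lists (AT5G59250 and LrgB), limma called 0 in any of the 5 contrasts. At an unadjusted p under 0.05 they numbered 1 of 6 between the genotypes in L and 0 in H, 1 between H and L in ape2 and 2 in Ws-2, and 0 for the interaction. Over all probe sets, 22.8%, 22.9%, 17.8%, 13.8% and 7.64% had such a p in these contrasts. On the starch breakdown list, DPE1, which rearranges maltotriose and longer glucans, rose in H over L in Ws-2 by 0.46 ± 0.12 (adjusted p = 0.0497). This call was lost under 16 of 21 alternatives, the fits without any array other than ape2 H 2 and ape2 L 2 included (up to 0.217). PWD, a kinase that phosphorylates starch, was at 0.12 in L and 0.23 in H between the genotypes (limma adjusted p = 0.452 and 0.11).

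**Figure D3:**
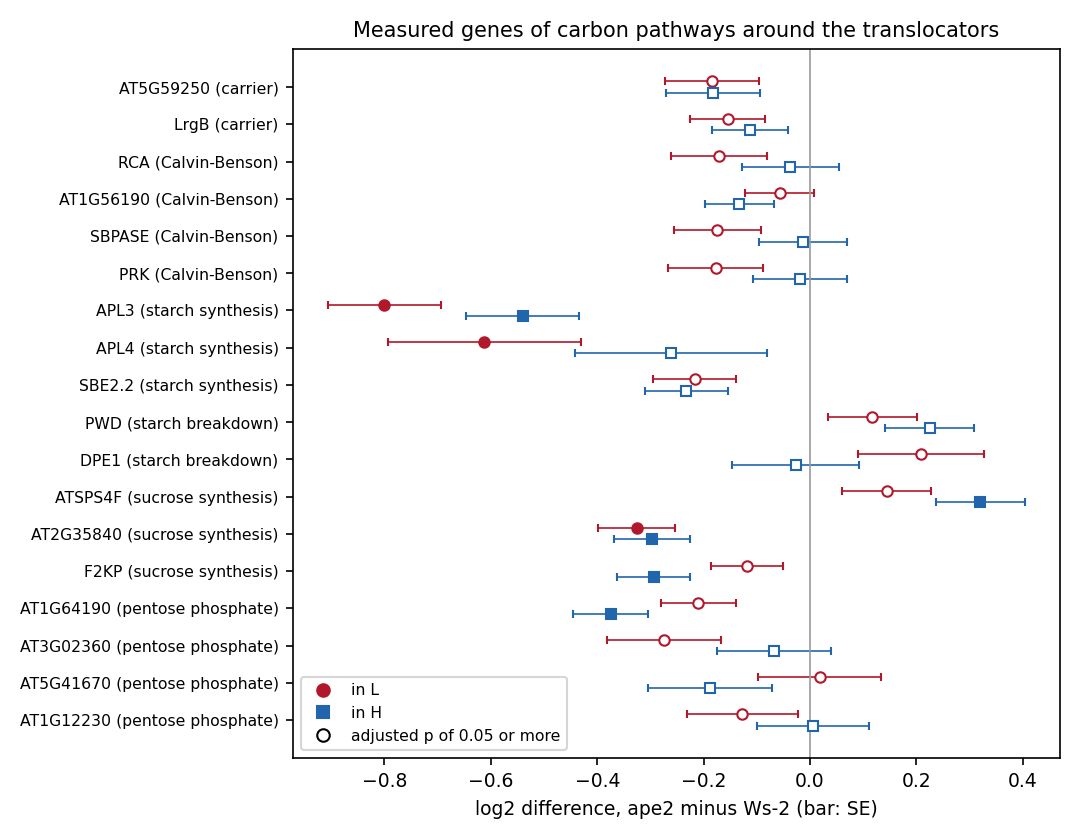
Fitted log2 differences, ape2 minus Ws-2, with their SE, for the 18 measured pathway genes in L (circles) and in H (squares), where filled symbols passed a limma adjusted p of 0.05. APL3 lies farthest to the left, at -0.80 in L and -0.54 in H, and ATSPS4F in H is the only filled symbol to the right of 0.

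The genes most like each member were sought among the 8997 tested probe sets with a single gene, by Pearson's r of log2(signal + 10) over the 12 arrays. The arrays share 4 group labels, so that any transcript that separates the genotypes will correlate with TPT and GPT2, and the values of r are a description. TPT was most like AT2G44670 (r = 0.983), AT5G15740 (0.980) and AT2G44310 (0.975), and most unlike AT2G38820 (-0.983) and AKINBETA1 (-0.975), which encodes a beta subunit of SnRK1, a kinase that senses energy status. AT2G44670 had signals from 409.8 to 469.7 on the 6 ape2 arrays and from 757.1 to 931.7 on the 6 Ws-2 arrays. Over all 16076 tested probe sets, not only those with a single gene, 207 reached r = 0.9 with TPT and 178 had an r of -0.9 or below.

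GPT2 was most like AT5G21100 (r = 0.978), AT2G15320 (0.977) and TCP15 (0.973), a transcription factor of the TCP family. It was most unlike SDP1 (r = -0.987), a lipase that breaks down stored triacylglycerol, and AT5G39080 (-0.981). SDP1 mirrored the order of GPT2, with means of 57.5 ± 1.80 in ape2 H and 64.5 ± 6.90 in ape2 L, against 26.2 ± 2.14 in Ws-2 H and 33.5 ± 1.78 in Ws-2 L. AT5G21100 followed the order of GPT2, at 244.1 ± 6.88 in ape2 H and 232.6 ± 22.8 in ape2 L, against 418.3 ± 23.5 in Ws-2 H and 363.9 ± 27.0 in Ws-2 L. Between GPT2 and TPT themselves r was 0.967.

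XPT was most like AT5G24690 (r = 0.921), SDH2-2 (0.883), the iron-sulphur subunit of mitochondrial succinate dehydrogenase, and AT4G11160 (0.882), and most unlike AT1G51400 (-0.899) and ATG3 (-0.885), a conjugating enzyme of autophagy. Over all 16076 tested probe sets, 1 reached r = 0.9 with XPT, against 207 for TPT and 179 for GPT2. With TPT its r was 0.383 and with GPT2 0.485. AT5G24690, like XPT, had its highest mean in Ws-2 H, at 594.0 ± 53.4, with 512.6 ± 19.4 in ape2 H, 494.9 ± 28.5 in ape2 L and 502.3 ± 18.4 in Ws-2 L.

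**Figure D4:**
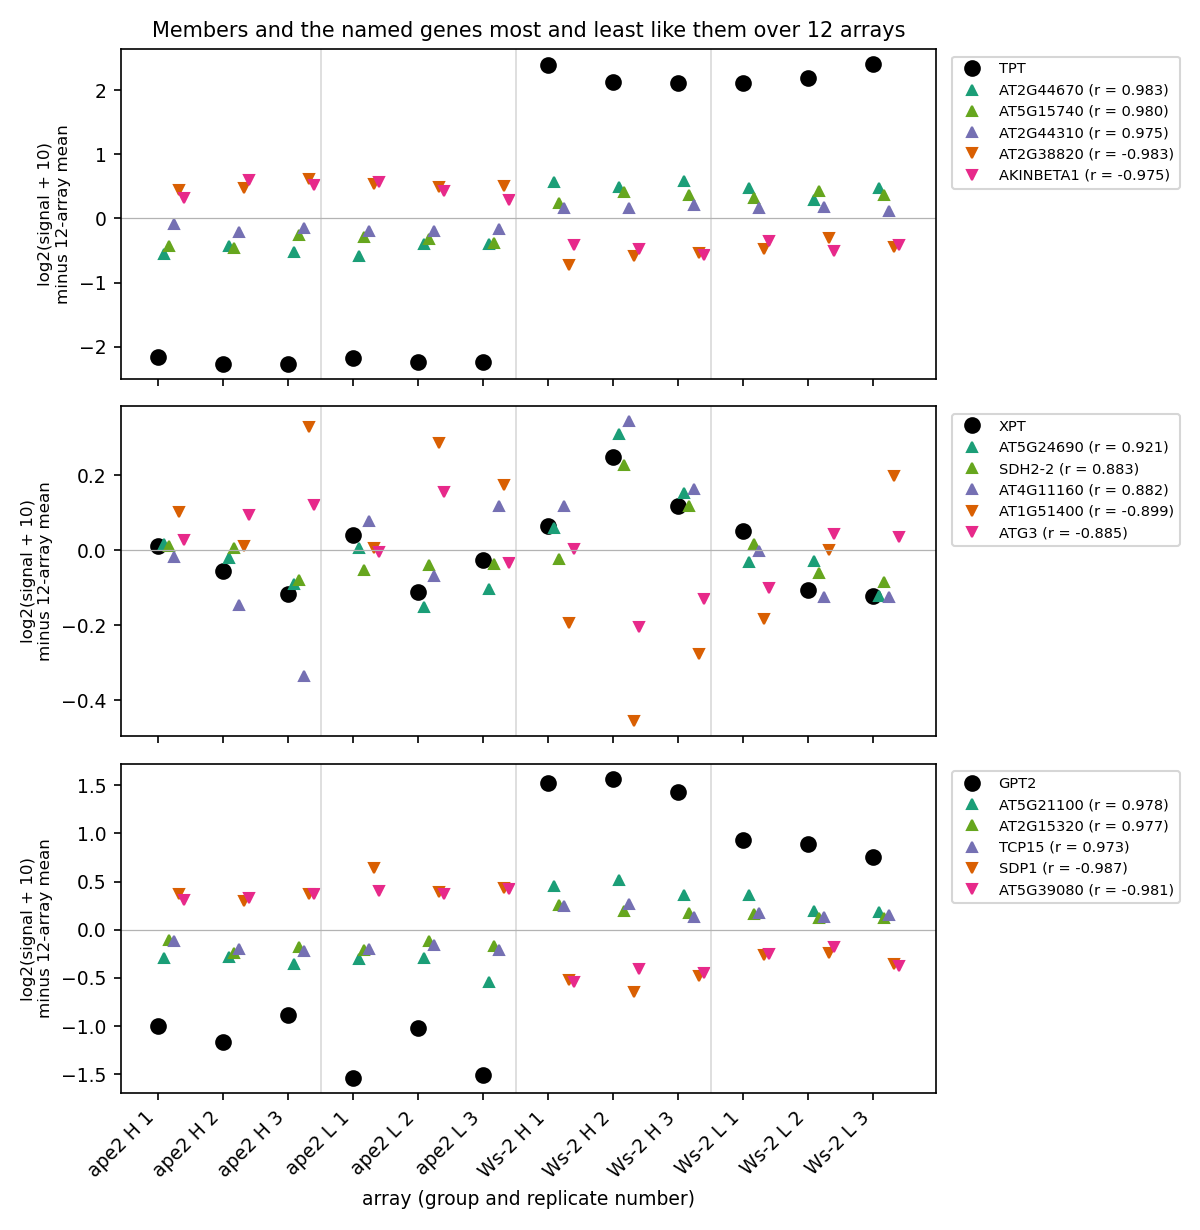
Each member (black circles) and the named genes most like it (upward triangles) and most unlike it (downward triangles) on the 12 arrays, as log2(signal + 10) less the mean over the arrays. TPT and GPT2 and their companions change level between the 6 ape2 and the 6 Ws-2 arrays. The XPT panel spans less than 1 log2 unit. XPT and the genes most like it have their highest values in Ws-2 H, and those most unlike it have their lowest there.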

How the data were processed

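The authors deposited signal intensities, 1 per probe set and array, for which the submitters' processing notes name MAS5. As deposited, each array had a 2% trimmed mean of 100.01. A change shared by most transcripts would therefore not show. The version and settings were not stated, and detection calls were not used. Arrays were rescaled to a trimmed mean of 100 over all 22810 probe sets, and the 64 control probe sets were left out of what followed. Probe sets that reached 20 on 3 or more arrays were kept, and log2(signal + 10) was fitted in limma 3.58.1 (R 4.3.3) with 4 group means and a robust prior that follows the mean. Tests were two-sided and adjusted by the Benjamini-Hochberg method over 16076 probe sets, with 0.05 as threshold. The script was tested on simulated data. The number of arrays limits the precision.

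The members, lists and tests were chosen with earlier results of these data known. Named genes were the members, list genes called in any of 5 contrasts, and for each member the 3 most and 2 least correlated named genes. Other list genes were chosen after their values were seen. Names come from the platform annotation through RefSeq. As alternatives the fit was run with an offset of 1 or 32, without the filter or with one at 50, after quantile normalization, on the values as deposited, with a constant prior, with only the compared groups, with the replicate number as a block, and without each array. No sequences were analysed here.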

Additional observations from a re-analysis of the deposited data

How the results depend on the processing

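The genotype differences of TPT and GPT2 and the condition difference of GPT2 in Ws-2 and in ape2 kept their direction under all alternatives run, and XPT passed the test in none. The adjusted p of XPT ran from 0.101 to 0.389 between the genotypes in H and from 0.165 to 0.548 between H and L in Ws-2. With an offset of 32, TPT was at -4.30 in L and -4.29 in H, and GPT2 at -1.81 and -2.17, while an offset of 1 gave GPT2 -2.46 and -2.71. Quantile normalization turned the sign of the TPT difference between H and L, at 0.002 in ape2 and 0.04 in Ws-2, where the adjusted p was 0.992 and 0.82, and over all alternatives 0.879 to 0.992 and 0.639 to 0.985. Leaving out each array in turn, these estimates ran from -0.047 to 0.008 and from -0.118 to 0.053. For XPT the estimates ran from -0.01 to 0.081 between the genotypes in L and from -0.06 to 0.016 between H and L in ape2. The cause of these turns of sign was not tested.

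Over all probe sets, the calls between H and L in ape2 numbered 422 with a constant prior and 383 with only the compared groups, against 648. Those in Ws-2 numbered 305 with a constant prior, against 474, and the interaction had 0, against 3. Without single arrays, the counts ran from 1024 to 1604 for the genotypes in L, from 1095 to 1843 in H, from 367 to 670 and from 265 to 506 between conditions in ape2 and Ws-2, and from 0 to 7 for the interaction. Of the pathway genes, 1 in place of 2 was called between H and L in ape2 with a constant prior, with only the compared groups and with the replicate block. In Ws-2, 0 in place of 1 were called with offsets of 1 or 32, no filter, quantile normalization, a constant prior or the replicate block. Without single arrays, the pathway counts ran from 1 to 3 in L and from 3 to 6 in H between the genotypes, and from 1 to 3 and from 0 to 1 between conditions in ape2 and Ws-2.

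Over all 4 groups together, no clear pairing of the arrays by replicate number was seen, which does not show that there was none. Deviations of same-numbered arrays from their group means correlated between -0.279 and 0.368 (median 0.027, 18 pairs). Those of arrays with different numbers correlated between -0.253 and 0.272 (median -0.009, 36 pairs). Of the 12 arrays, 3 correlated best with their own number. Within a genotype, same-numbered L and H arrays correlated at 0.12, 0.044 and 0.045 in Ws-2 and at 0.136, 0.368 and 0.074 in ape2. Different-numbered L and H arrays there ran from -0.253 to 0.148, most of them negative. The replicate block joins a number across both genotypes, so a pairing of L with H within a genotype was not modelled in the tests between conditions. With the replicate block, XPT in H was at -0.20 (adjusted p = 0.152) and TPT in Ws-2 at -0.03 (0.94), and 1475 and 1592 probe sets were called between the genotypes in L and H. The calls of APL4 in L (0.0625), DPE1 in Ws-2 (0.0766) and AT1G64190 between conditions in ape2 (0.0543) were not kept with the block.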
